A study of Mus musculus with 30 samples.

Results

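Ginsenoside Rb2, a single purified saponin of ginseng, was compared with the saponin fraction of Korean Red Ginseng (SFr), a mixture of saponins, in mouse C2C12 myotubes that received no D-galactose. The 6 libraries, 3 per preparation, were chosen by their treatment labels out of the 30 of the series. SFr was given at 100 µg/mL for 12 h and Rb2 at 20 µM for 12 h, which is 21.6 µg/mL at its molar mass of 1079 g/mol, and 3 vehicle-treated libraries (control) were the baseline of both. What the vehicle was, and whether the control cultures were harvested together with the treated ones, are details that no source used here states, so a difference from control may include them. C2C12 is an immortalised mouse myoblast line, labelled wildtype, whose cells fuse into multinucleated myotubes in low-serum medium, so that all groups stand for this cell line in culture and for no muscle tissue. The series also holds SFr and Rb2 cultures that received D-galactose at 20 mg/mL for 24 h after the same pretreatment (SFr_Dgal and Rb2_Dgal) and D-galactose cultures without a preparation (Dgal), with 3 libraries each. D-galactose is a sugar used to bring on ageing-like changes in cultured cells. The design text calls the replicates biological, but no source says how the cultures were separated, and p-values measure the spread between these libraries.

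Ginsenosides are triterpenoid glycosides, in which sugar chains are attached to a steroid-like core, and they are amphipathic molecules that can enter membranes. Rb2 belongs to the protopanaxadiol type and carries sugar chains at both ends of its core. A whole saponin fraction holds many ginsenosides that differ in core and sugars, and the share of Rb2 in SFr is not given in the sources used here. Because the preparations differ in both amount and composition, an effect of SFr that was missing with Rb2 may belong to another component or to the amount, and these cannot be told apart.

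The 9 libraries of control, Rb2 and SFr held 23545437 to 29139059 counts each, so that 3 counts, the most that a count of 0 allows, corresponded to 0.103 to 0.127 CPM (a gene's counts relative to the library's scaled total). A principal component analysis of these 9 libraries placed 60.3% of the variance on a first component that held SFr between 28.8 and 32.1 and both control and Rb2 between -15.7 and -14.3. The second component (7.83%) held Rb2 between 4.95 and 11.2 and SFr between -2.82 and 2.06. On it, control replicate 1 lay at 0.295 and control replicates 2 and 3 at -11.8 and -12.6. Defining markers of muscle were present in every library: their summed level was 19489 to 20143 CPM after Rb2, 16859 to 17957 CPM after SFr and 21141 to 22747 CPM in control. Of the 7 muscle markers tested, 1 was higher and 5 were lower in SFr than in Rb2, where 21.9% of all genes were called in each direction. Of 8 fibroblast markers tested, 5 were higher and 1 was lower in SFr, with summed levels of 419 to 438 CPM after SFr, 232 to 237 CPM after Rb2 and 221 to 229 CPM in control. The fibroblast marker Thy1 held 10 to 13 counts per group. Macrophage markers summed to 10.4 to 11.5 CPM after SFr, 7.72 to 8.26 CPM after Rb2 and 6.62 to 7.42 CPM in control. Of 6 tested, 2 were higher and 0 lower in SFr than in Rb2 (1 lower at an unadjusted p under 0.05). Endothelial markers summed to 3.62 to 3.88 CPM after SFr, 2.86 to 3.50 CPM after Rb2 and 2.86 to 3.46 CPM in control. Of 3 tested, 0 were higher and 1, Cdh5, was lower in SFr than in Rb2 (1 higher at an unadjusted p under 0.05). Fat cell markers summed to 31.2 to 32.6 CPM after SFr, 22.8 to 25.4 CPM after Rb2 and 18.9 to 21.3 CPM in control. Of the fat cell markers, 2 were tested, of which 1 was higher in SFr than in Rb2 and 2 were higher in SFr than in control. The others lay under the filter. Among those, Fabp4 held 15 counts after SFr, 2 after Rb2 and 4 in control. Adipoq, Cidec and Lep held 0 or 1 count per group, and Plin1, Retn and Cfd held 0 in all 3 groups. Fewer cells of a type and less RNA per cell cannot be told apart in bulk RNA, and the part of these markers in the results was not tested. The share of counts in mitochondrially encoded genes was 1.12% to 1.36% after SFr, 0.764% to 1.01% after Rb2 and 0.727% to 1.14% in control, and 5 of 13 such genes were higher and 0 lower in SFr than in Rb2, against 3 when only the groups compared were fitted.

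To ask which transcripts the whole fraction and the purified saponin left at different levels, SFr was tested directly against Rb2. Of 12184 genes tested, 5344 (43.9%) differed at an adjusted p under 0.05 (edgeR quasi-likelihood test, Benjamini-Hochberg adjustment), with 2674 (21.9%) higher and 2670 (21.9%) lower in SFr. The difference was at least 2-fold for 533 of them, 274 higher and 259 lower. Against control the 2 preparations stood far apart in the number of genes changed: SFr changed 5251 genes (43.1%), of which 2590 (21.3%) rose and 2661 (21.8%) fell, and Rb2 changed 187 genes (1.53%), of which 70 (0.575%) rose and 117 (0.96%) fell. At least 2-fold changes were called for 549 genes after SFr and for 3 genes after Rb2. Both comparisons use the same control libraries. The Rb2 count depended on the libraries used: it was 115 without control replicate 3 and 106 in a fit that held only these 2 groups.

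Among genes at a mean of at least 5 CPM, the largest excess in SFr over Rb2 was in Galnt15, which encodes a glycosyltransferase that starts mucin-type sugar chains (chr14:32028989-32062197 on GRCm38). Its 3 libraries held 16, 15.2 and 15.4 CPM after SFr, 2.38, 2.29 and 3.04 CPM after Rb2 and 3.48, 3.16 and 3.87 CPM in control. The SFr libraries were all far above the others, and the Rb2 libraries were all below the control libraries. SFr exceeded Rb2 by 2.60 ± 0.12 on the log2 scale (± SE, adjusted p = 4.35e-19), while the difference of Rb2 from control was -0.45 ± 0.15 and did not pass (adjusted p = 0.159). Next came Cxcr6, the receptor of the chemokine CXCL16 (2.51 ± 0.094), Aldh3a1, an aldehyde dehydrogenase inducible through the aryl hydrocarbon receptor (2.24 ± 0.084), and Xdh, xanthine dehydrogenase, which forms uric acid (2.22 ± 0.090). They were followed by Gpr137b, a lysosomal membrane protein gene (2.18 ± 0.077), Thbd, thrombomodulin (1.97 ± 0.054), Fbxo40, a muscle ubiquitin ligase adaptor (1.96 ± 0.065), and Mgp, matrix Gla protein (1.88 ± 0.096). Each of these 8 genes was lower in all 3 Rb2 libraries than in any SFr library, which the choice of genes without overlap fixed.

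In the other direction, Col23a1, a transmembrane collagen gene, held 2.90, 3.11 and 2.68 CPM after SFr and 14.4, 15.3 and 14.2 CPM after Rb2, against 28.6, 28.9 and 31.1 CPM in control. The 3 groups did not overlap, and Rb2 stood between control and SFr. The SFr level was lower than the Rb2 level by a log2 fold change of -2.34 ± 0.091 (adjusted p = 1.52e-20). The other 7 of the largest deficits in SFr were Cdhr1, a photoreceptor cadherin (-2.20 ± 0.085), Mybpc1, slow myosin-binding protein C (-2.06 ± 0.067), Adamtsl2, a matrix protein that binds latent TGF-beta binding protein (-2.03 ± 0.081), Fam78a (-1.98 ± 0.10), Fst, follistatin (-1.95 ± 0.051), Bub1, a kinase of the spindle checkpoint (-1.91 ± 0.11), and R3hdml (-1.85 ± 0.072). Of these 8 genes, Rb2 changed Col23a1 and Fst against control and none of the others passed.

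**Figure D1:**
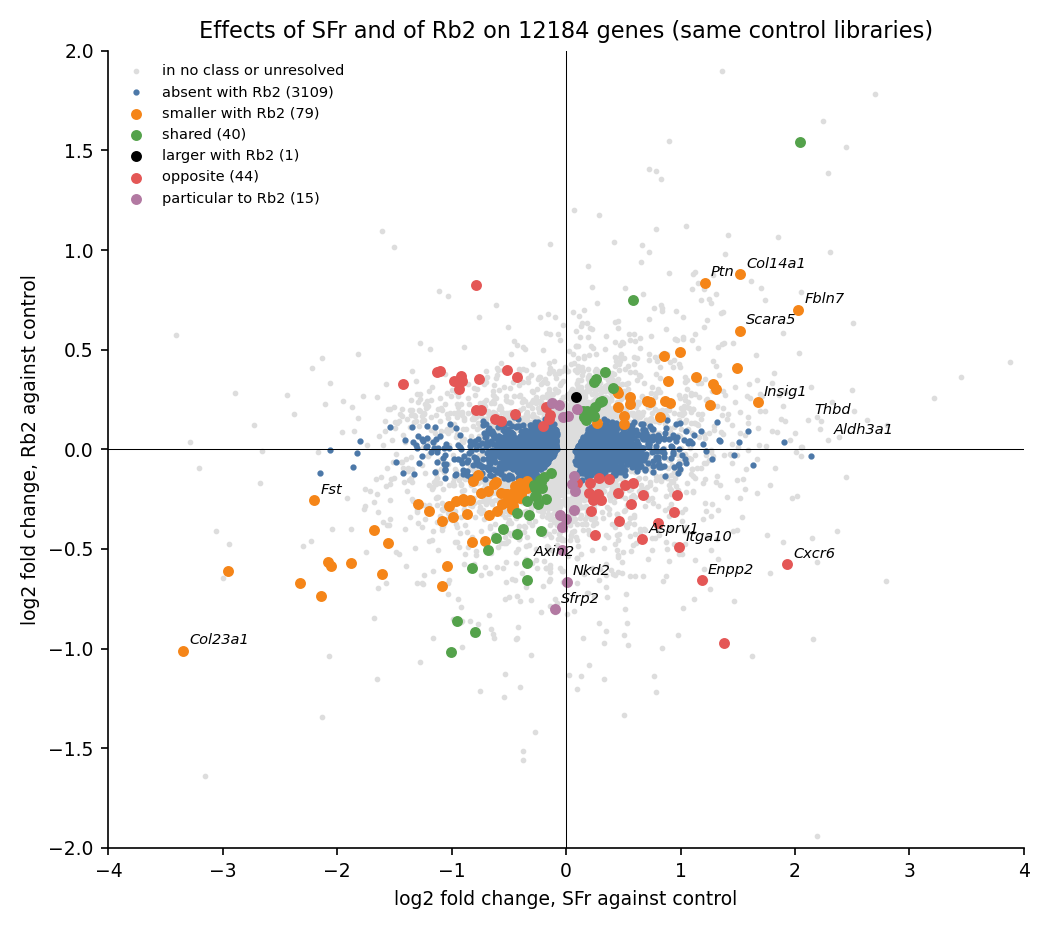
Each point is 1 of 12184 genes, placed by its log2 fold change after SFr against control (x axis) and after Rb2 against control (y axis); both use the same 3 control libraries, colours mark the classes and 10 genes lie outside the axes. The 3109 genes changed by SFr with no Rb2 effect of 1.2-fold lie in a flat band along the x axis, and the 15 genes particular to Rb2 lie in a narrow upright band.

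Genes were then sorted by what each preparation did against control and by the direct test between them. An SFr effect was counted as absent with Rb2 where SFr differed from control, SFr differed from Rb2 in the same direction, and the whole 95% confidence interval of the Rb2 effect lay within 1.2-fold of control. By this rule 3109 genes had an SFr effect that was absent with Rb2, 1548 higher and 1561 lower. Their median absolute log2 fold change was 0.25 after SFr and 0.037 after Rb2, both fixed in part by the rule itself, and 67 of them changed at least 2-fold after SFr. For 79 genes both preparations acted in the same direction and the Rb2 effect was smaller, for 40 both acted in the same direction and no difference was called, and for 1 gene, Col3a1, the Rb2 effect was larger. Both preparations changed 44 genes in opposite directions, and 15 genes were particular to Rb2, which means that Rb2 differed from control and from SFr while the interval of the SFr effect lay within 1.2-fold.

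A large remainder could not be placed. For 1109 genes that SFr changed and that differed from Rb2, the Rb2 effect was not called but its interval reached past 1.2-fold, so that an Rb2 effect of that size was not excluded by these 3 libraries. For another 869 genes SFr was called and Rb2 was not, but the direct test showed no difference, and these cannot be listed as absent with Rb2. In total 164 genes were called after both preparations and 23 after Rb2 and not after SFr. Of the 549 genes that SFr changed at least 2-fold, Rb2 changed 35, 67 were absent with Rb2 and 447 could not be placed. Most of the large SFr effects were therefore not shown to be absent with Rb2.

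The sterol pathway was raised by SFr and was near the control level after Rb2. Cells make cholesterol through the mevalonate pathway, and the transcription factor SREBP2 turns on its enzymes when membrane sterol is low, while LXR receptors turn on genes that export sterol when it is high. Of 22 cholesterol synthesis genes tested, 20 were higher and 1 (Ggps1) was lower in SFr than in Rb2, with a median log2 difference of 0.51 against 0.0015 over all genes tested. In the functional lists described here in which 0 members were lower or 0 higher in SFr, the count was also 0 at an unadjusted p under 0.05 and with DESeq2. Counts per list are to be read against 21.9% of all genes called in each direction in SFr against Rb2. For Rb2 against control, the shares over all genes were 0.575% higher and 0.96% lower. Rb2 raised 1 of the 22 against control, Idi1, and 19 fell in the class absent with Rb2. Cyp51, lanosterol demethylase, held 406, 403 and 389 CPM after SFr, 220.3, 214 and 230.3 CPM after Rb2 and 217, 212 and 213 CPM in control. The SFr libraries stood apart and the other groups lay side by side, with an Rb2 effect whose 95% interval ran from -0.023 to 0.12 on the log2 scale. SFr exceeded Rb2 by 0.85 ± 0.036 for Cyp51 (adjusted p = 1.07e-19), by 0.92 ± 0.046 for Hsd17b7, by 0.78 ± 0.037 for Hmgcs1, HMG-CoA synthase, and by 0.74 ± 0.040 for Fdft1, squalene synthase.

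Insig1, which retains the SREBP escort protein in the endoplasmic reticulum and is itself an SREBP target, was the 1 gene of the sterol sensing and uptake list that Rb2 changed. It held 137, 138 and 136 CPM in control, 155, 161 and 167 CPM after Rb2 and 459, 433 and 416 CPM after SFr, with no overlap between groups. Rb2 raised it by 0.24 ± 0.041 (adjusted p = 0.000525) and SFr by 1.67 ± 0.041 (adjusted p = 5.23e-26). Of 16 genes of sterol sensing and uptake, 11 were higher and 0 lower in SFr than in Rb2, including Srebf1 (0.42 ± 0.037) and the sterol carrier gene Stard4 (0.63 ± 0.048).

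Sterol export genes of the LXR type were also higher in SFr, in 9 of 12 cases with 0 lower and a median difference of 0.45. Against control, Rb2 changed 0 of the 12, which is near the background share of 1.53% of all genes. At an unadjusted p under 0.05, 3 were lower after Rb2, and DESeq2 called 0. Abca1, the main cholesterol exporter, held 32.4, 32.8 and 44.7 CPM after SFr, 11.8, 13.0 and 12.2 CPM after Rb2 and 10.8, 12.6 and 11.1 CPM in control. All 3 SFr libraries were above the rest, although they differed among themselves. The difference was 1.57 ± 0.13 for Abca1, 1.04 ± 0.082 for its partner Abcg1 and 1.25 ± 0.067 for Apoe, the apolipoprotein that carries exported sterol. The interval of the Rb2 effect lay within 1.2-fold for Abcg1 (-0.16 to 0.22) and not for Abca1 (-0.20 to 0.42). Of 16 fatty acid synthesis genes, 11 were higher and 2 lower in SFr, led by the desaturase Scd1, at 2254 ± 22.4 CPM after SFr against 1207 ± 24.4 after Rb2 and 1192 ± 63.6 in control (SD, n = 3).

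Antioxidant genes showed the same division. NRF2 is a transcription factor that is released by oxidants and electrophiles and turns on thiol and glutathione enzymes, and the aryl hydrocarbon receptor turns on enzymes that process foreign aromatic compounds. Of 26 NRF2 targets, 23 were higher and 0 lower in SFr than in Rb2 (median 0.56), and Rb2 raised 1 of the 26, Srxn1, the gene of the peroxiredoxin-repairing enzyme sulfiredoxin. Srxn1 held 52.6, 50.5 and 50.8 CPM after SFr, 24.2, 25.7 and 24.9 CPM after Rb2 and 22.3, 22.3 and 19.5 CPM in control. Rb2 lay just above control, by 0.22 ± 0.057 (adjusted p = 0.0333), and SFr lay above Rb2 by 1.04 ± 0.051. For Txnrd1, thioredoxin reductase, the SFr excess was 0.67 ± 0.039 and the Rb2 effect was 0.0047 with an interval of -0.077 to 0.086. The interval was -0.11 to 0.071 for Hmox1, heme oxygenase, -0.081 to 0.15 for Ftl1, ferritin light chain, and -0.095 to 0.059 for Pgd, an NADPH-forming enzyme, all of which SFr raised. Gstm1, a glutathione transferase with close copies among which reads may be split, was higher in SFr by 1.71 ± 0.062.

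Of 8 aryl hydrocarbon receptor genes tested, 7 were higher and 1, the receptor gene Ahr, was lower in SFr than in Rb2. Rb2 lowered Ahr against control as well, by a log2 fold change of -0.22 ± 0.052 (adjusted p = 0.0155). Aldh3a1 held 22.4, 22.4 and 20.1 CPM after SFr, 5.06, 4.20 and 4.49 CPM after Rb2 and 4.74, 4.38 and 4.13 CPM in control. Rb2 and control libraries overlapped, and the Rb2 effect was 0.048 with an interval of -0.17 to 0.27, too wide for the class. Cyp1b1, a cytochrome P450 of this pathway, rose after both, from 120.2 ± 3.66 to 139 ± 2.28 CPM with Rb2 and to 164 ± 5.57 CPM with SFr. The direct difference for Cyp1b1 was 0.24 ± 0.039 (adjusted p = 4.22e-06). Cyp1a1 lay under the filter, with 12 counts over the 3 SFr libraries, 1 over the Rb2 libraries and 0 over the control libraries.

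Promoter sequences of 3 genes stand here for lists of genes that differed together between SFr and Rb2: Hmgcs1 for cholesterol synthesis, Srxn1 for the NRF2 targets and Mki67, the proliferation marker, for the proliferation genes. They are RefSeq sequences on GRCm38.p6, from 250 bases before to 50 bases after the annotated start, written 5′ to 3′ on the gene's strand, with matches to the motif letters in capitals. The letters were TCACNCCAC, after the sterol regulatory element, TGANTCAGC, after the antioxidant response element, and TTTGAA, after the cell cycle homology region, each searched on both strands.
Hmgcs1 (chr13:119690101-119690400, + strand): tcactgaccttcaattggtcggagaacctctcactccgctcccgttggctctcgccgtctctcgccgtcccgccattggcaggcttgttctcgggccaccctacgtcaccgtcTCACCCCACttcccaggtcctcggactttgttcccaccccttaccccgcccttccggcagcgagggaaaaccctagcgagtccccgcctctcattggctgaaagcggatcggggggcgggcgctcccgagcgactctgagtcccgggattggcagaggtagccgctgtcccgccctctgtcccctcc
Srxn1 (chr2:152105274-152105573, + strand): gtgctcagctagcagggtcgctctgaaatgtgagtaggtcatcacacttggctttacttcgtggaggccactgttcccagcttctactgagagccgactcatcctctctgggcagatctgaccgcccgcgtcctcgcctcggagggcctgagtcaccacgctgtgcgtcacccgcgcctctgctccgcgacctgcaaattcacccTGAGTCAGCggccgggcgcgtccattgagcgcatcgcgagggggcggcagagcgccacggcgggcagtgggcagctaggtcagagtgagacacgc
Mki67 (chr7:135716330-135716629, - strand): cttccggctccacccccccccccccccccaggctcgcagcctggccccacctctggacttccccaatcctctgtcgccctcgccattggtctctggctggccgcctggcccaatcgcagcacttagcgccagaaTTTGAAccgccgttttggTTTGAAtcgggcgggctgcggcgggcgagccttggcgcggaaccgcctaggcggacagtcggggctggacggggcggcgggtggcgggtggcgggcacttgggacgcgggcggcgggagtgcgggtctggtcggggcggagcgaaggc
The sterol letters occurred in 1 of 17 cholesterol synthesis promoters in the table (5.88%) and in 1.43% of 9683 promoters of tested genes. The antioxidant letters occurred in 5 of 21 NRF2 target promoters (23.8%) against 1.3%, and the cell cycle letters in 16 of 28 proliferation promoters (57.1%) against 14.1%. These matches describe the sequences and say nothing of which factor acted.

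Muscle differentiation genes were lowered by SFr and lay near the control level after Rb2. Of 39 sarcomere genes, which build the contractile apparatus, 33 were lower and 0 higher in SFr than in Rb2 (median -0.36), and 27 fell in the class absent with Rb2. Mybpc1 held 15.8, 19.0 and 16.8 CPM after SFr, 73.3, 69.4 and 71.6 CPM after Rb2 and 73.1, 72.5 and 68.9 CPM in control. The Rb2 and control libraries overlapped fully, and the Rb2 effect had an interval of -0.12 to 0.12. Mybph, myosin-binding protein H, was lower in SFr by a log2 fold change of -1.21 ± 0.046, Actc1, cardiac alpha-actin, by -0.92 ± 0.044, and Actn2, the Z-disc alpha-actinin, by -0.96 ± 0.049. Ttn, the titin gene, varied among replicates, with 3348 ± 1076 CPM in control, and its difference of -0.83 ± 0.28 (adjusted p = 0.0203) lost the call in some of the fits with a library left out.

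Rb2 lowered 2 sarcomere genes, Myh3 and Myoz2. Myh3, the embryonic myosin heavy chain, held 4068, 4337 and 4171 CPM in control, 3318, 3221 and 3393 CPM after Rb2 and 1975, 2162 and 2203 CPM after SFr. The groups formed 3 separate steps. Rb2 lowered it by a log2 fold change of -0.34 ± 0.044 (adjusted p = 3.64e-06) and SFr by -0.99 ± 0.044 (adjusted p = 3.32e-19). Transcription factors that drive these genes were also lower after SFr: Mef2c differed by -0.96 ± 0.046 between the preparations, Mef2a by -0.78 ± 0.038 and Myog, myogenin, by -0.58 ± 0.047. Of 14 myogenic factor genes, 9 were lower and 2 higher in SFr. Rb2 changed 0 of them with edgeR and with DESeq2 (2 at an unadjusted p under 0.05), against 1.53% of all genes with edgeR. For Myog the interval of the Rb2 effect was -0.11 to 0.083, and for Mef2c it was -0.19 to -0.0088.

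Excitation-contraction coupling genes, which handle calcium in the muscle fibre, were lower in SFr in 13 of 19 cases and higher in 4. Over all genes 21.9% were called in each direction, so the 4 higher are near that share. The 13 lower genes included Cacna1s, the voltage sensor (-0.86 ± 0.043), Casq2, calsequestrin (-0.68 ± 0.036), and Atp2a1, the calcium pump SERCA1 (-0.59 ± 0.035). Rb2 changed 0 of the 19, against 1.53% of all genes, with 4 at an unadjusted p under 0.05 and 1 called by DESeq2. Atp2a1 stood at 1985 ± 31.4 CPM after Rb2 against 1833 ± 66.0 in control (adjusted p = 0.0975). Among atrophy genes 8 of 18 were higher and 2 lower in SFr, against the same 21.9% in each direction. The ubiquitin ligases of muscle wasting Fbxo32 and Trim63 were at 196 ± 4.09 and 76.5 ± 5.20 CPM after SFr, 123 ± 4.85 and 55.8 ± 3.79 CPM after Rb2, and 123 ± 9.10 and 50.7 ± 3.91 CPM in control. For Fbxo32 the Rb2 effect had an interval of -0.097 to 0.11, and for Trim63 of 0.013 to 0.26. Of 18 creatine and glycolytic genes, 9 were lower and 3 higher in SFr, with Ckm, muscle creatine kinase, at -0.87 ± 0.051 and Hk2, hexokinase 2, at 0.69 ± 0.040, and of 12 neuromuscular junction genes 6 were lower and 1 was higher.

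**Figure D2:**
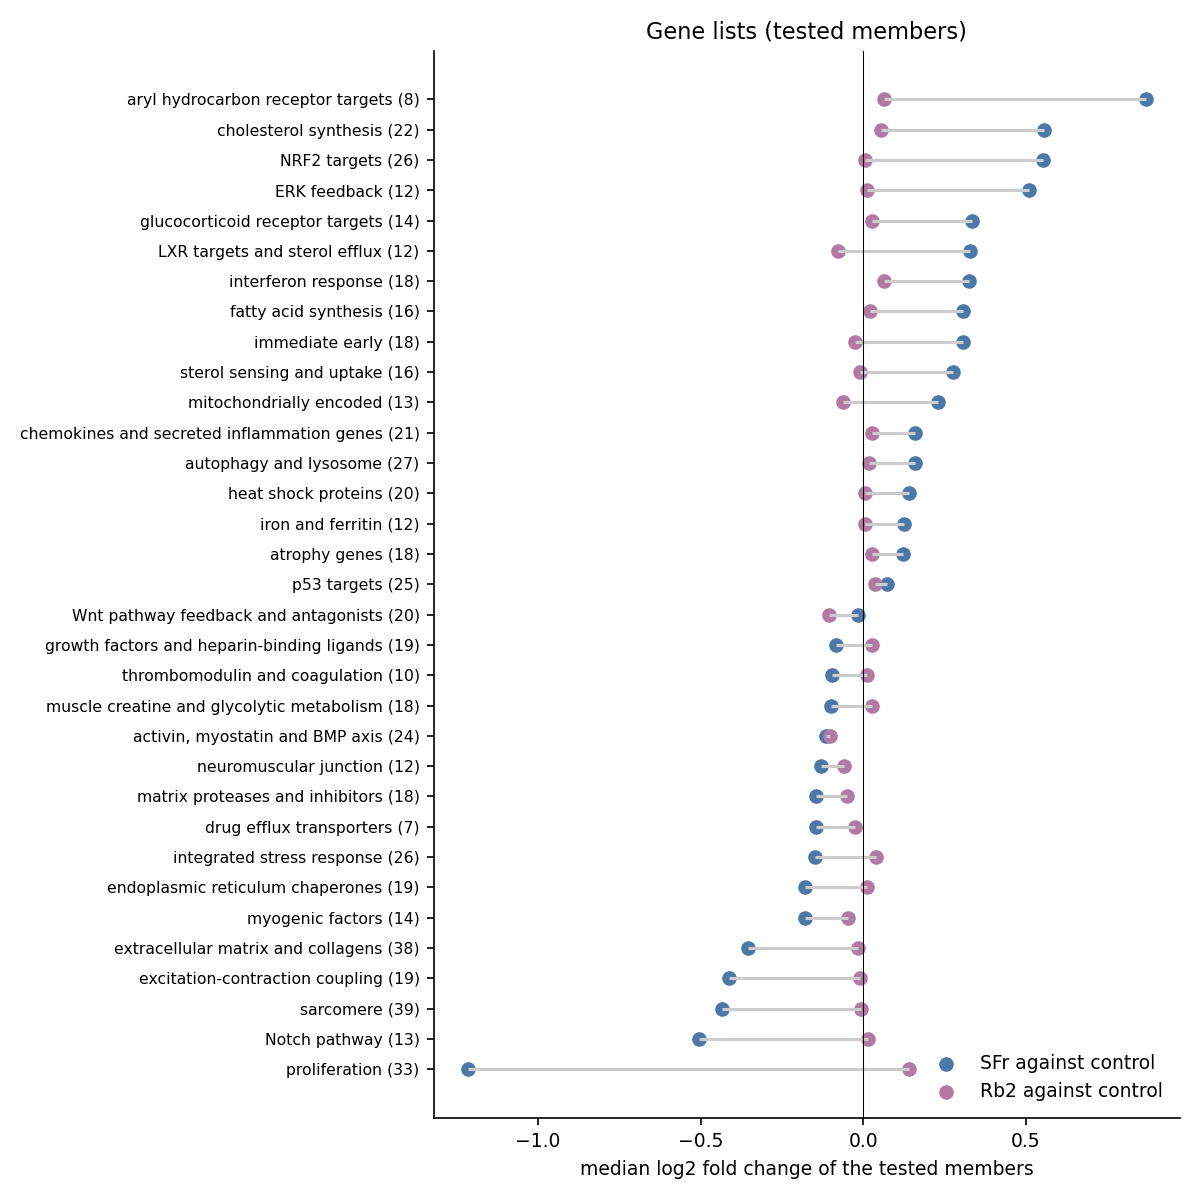
Each row is a gene list, with the number of tested members in brackets, and the x axis is the median log2 fold change of those members after SFr against control (blue) and after Rb2 against control (purple), from the same control libraries. The Rb2 medians lie between -0.10 and 0.14 in the 33 lists plotted, which leave out the cell markers, while the SFr medians run from -1.22 for proliferation to 0.87 for aryl hydrocarbon receptor genes.

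Proliferation genes gave the widest gap between the preparations of the 33 lists examined, by the size of the median difference. These transcripts mark dividing cells, and most cells of a differentiated myotube culture have left the cell cycle. Of 33 genes, 32 were lower and 1, Pcna, was higher in SFr than in Rb2, with a median difference of -1.37. Ccna2, cyclin A2, held 9.51, 8.90 and 9.45 CPM after SFr, 30.3, 29.1 and 27.7 CPM after Rb2 and 25.9, 25.0 and 24.5 CPM in control. All SFr libraries lay far below, and the Rb2 libraries all lay above the control libraries, by 0.20 ± 0.067 on the log2 scale, which did not pass (adjusted p = 0.139). Mki67, the proliferation marker, held 13.5, 15.8 and 21.0 CPM after SFr and 56.6, 53.7 and 44.7 CPM after Rb2 (log2 difference -1.62 ± 0.17, adjusted p = 5.35e-08).

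The median change of the 33 genes after Rb2 was 0.14, against -0.0034 over all genes tested, and Rb2 raised 2 of them, Nuf2 and Pbk, both lowered by SFr. Nuf2, a kinetochore component, held 9.86, 9.44 and 9.59 CPM in control, 11.6, 11.8 and 12.9 CPM after Rb2 and 3.72, 3.15 and 3.85 CPM after SFr. Its groups did not overlap, and Rb2 raised it by 0.33 ± 0.080 (adjusted p = 0.0212). Nuf2 left the class of opposite effects in 5 of 18 settings: with DESeq2, without Rb2 replicate 2 or 3, and without control replicate 2 or 3. The changed margins among the 18 have no part in the rule for that class. DESeq2 called 1 of the 33 genes higher after Rb2. Pbk, a mitotic kinase, was raised by 0.39 ± 0.093 (adjusted p = 0.0162), a call that was lost in some of the fits with a library left out, with adjusted p up to 0.109. For 19 of the 33 genes no class could be given, since the Rb2 effect was not called and its interval did not lie within 1.2-fold. At an unadjusted p under 0.05, Rb2 raised 12 of the 33 and lowered 0. Of all 12184 genes, 1473 passed that threshold after Rb2 in either direction. Cdkn1a, the p21 inhibitor of the cell cycle, was lower after SFr (1451 ± 11.7 CPM) than after Rb2 (1986 ± 76.2 CPM) or in control (2063 ± 113 CPM). Of 25 p53 targets, 6 were higher and 9 lower in SFr than in Rb2, against 21.9% of all genes in each direction.

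Stress genes differed by branch, with counts to be read against 21.9% of all genes called in each direction between SFr and Rb2. Of 26 integrated stress response genes, which ATF4 turns on when protein synthesis is restrained, 16 were lower and 1 was higher in SFr than in Rb2. Fgf21, a secreted metabolic hormone of this response, held 17.5, 19.5 and 20.8 CPM after SFr, 50.8, 50.1 and 44.4 CPM after Rb2 and 46.6, 51.7 and 44.7 CPM in control. Only the SFr libraries stood apart among these 9, and the difference was -1.33 ± 0.097 (adjusted p = 1.9e-11). The 1 higher gene was Atf3 (0.95 ± 0.090), which other stress and growth signals also induce. Of 19 endoplasmic reticulum chaperone genes 14 were lower and 0 higher, such as Herpud1 (-0.52 ± 0.037) and Hsp90b1 (-0.30 ± 0.038). Heat shock genes were higher in 10 of 20 cases and lower in 2, led by Hspb1 (1.1 ± 0.061), and autophagy and lysosome genes were higher in 14 of 27 and lower in 1, with the cargo receptor gene Sqstm1 at 0.68 ± 0.035 and the protease gene Ctsd at 0.35 ± 0.031. Rb2 changed 0 genes in each of these 4 lists by edgeR's adjusted p. With 1.53% of all genes called, a count of 0 is near the background share for lists of this size. At an unadjusted p under 0.05 Rb2 changed 3 of the integrated stress response genes, 2 heat shock genes and 5 autophagy and lysosome genes. DESeq2 called 2 of the last list and 0 of the others.

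Among signalling genes, ERK feedback genes were higher in SFr than in Rb2 in 9 of 12 cases with 0 lower, including the phosphatase Dusp4 (0.71 ± 0.044) and Spry2 (0.70 ± 0.050), and immediate early genes in 11 of 18 with 1 lower. Glucocorticoid receptor targets were higher in 10 of 14 and lower in 1, with the metallothionein Mt1 at 1.5 ± 0.070 and the kinase Sgk1 at 0.77 ± 0.038. Of 18 interferon response genes 8 were higher and 0 lower. Of 21 chemokine and secreted inflammation genes 10 were higher and 4 lower, the 4 lower near the 21.9% of all genes called in each direction. This list held the growth factor binding proteins Igfbp4 (1.49 ± 0.061) and Igfbp3 (-1.46 ± 0.076), which moved in opposite directions. Notch pathway genes were lower in 9 of 13 cases with 0 higher, such as the target Hey1 (-1.70 ± 0.13), the receptor Notch3 (-0.71 ± 0.079) and the ligand Jag1 (-0.73 ± 0.079). In the matrix list 23 of 38 genes were lower and 8 higher, with Col18a1 at -1.03 ± 0.047 and Dcn, decorin, at 1.18 ± 0.042.

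Smaller lists were mixed, with counts to be read against 21.9% of all genes called in each direction. Of 19 growth factors and heparin-binding ligands, 5 were higher and 7 lower in SFr than in Rb2, of 18 matrix proteases and inhibitors 6 and 7, of 10 coagulation genes 3 and 4, of 12 iron genes 6 and 3, and of 7 drug efflux transporters 3 and 2. Spp1, osteopontin, a secreted matrix protein that also stood among the bone and cartilage markers, rose with both preparations, from 1462 ± 55.0 CPM (SD, n = 3) in control to 1801 ± 17.7 CPM with Rb2 and 3633 ± 151 CPM with SFr. Bone and cartilage markers were higher in SFr than in Rb2 in 2 of 6 cases and lower in 1, and the list's summed level, 3628 to 3905 CPM after SFr and 1882 to 1912 CPM after Rb2, held Spp1. Plat, tissue plasminogen activator, which starts fibrinolysis, fell by a log2 fold change of -0.25 ± 0.037 after Rb2 and -0.90 ± 0.038 after SFr, while the difference between the preparations was 1.97 ± 0.054 for Thbd and -0.85 ± 0.039 for Tfrc, the transferrin receptor. Of 11 markers of undifferentiated myoblasts, 4 were higher and 6 lower in SFr.

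Where Rb2 had an effect of its own size, it often ran in the direction of SFr. The 79 genes with a smaller Rb2 effect, 26 higher and 53 lower, had a median absolute log2 fold change of 0.26 after Rb2 and 0.82 after SFr. Col23a1, which SFr lowered more than any other of the genes described here, was also the gene that Rb2 lowered most in this class, by -1.01 ± 0.063 (adjusted p = 2.9e-13). Ptn, pleiotrophin, a heparin-binding growth factor, held 7.91, 7.93 and 6.62 CPM in control, 13.9, 12.4 and 13.9 CPM after Rb2 and 16.8, 17.8 and 17.6 CPM after SFr. Its Rb2 level came close to its SFr level without reaching it, and the remaining difference was 0.38 ± 0.077 (adjusted p = 0.000145). Col14a1, a collagen of fibrous matrix that also stood in the fibroblast marker list, rose by 0.88 ± 0.15 after Rb2 and by 1.52 ± 0.14 after SFr.

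Fbln7, fibulin 7, rose by 0.70 ± 0.072 after Rb2 and 2.03 ± 0.065 after SFr, and Scara5, a ferritin receptor, by 0.60 ± 0.079 and 1.52 ± 0.074. Gja5, connexin 40, fell from 85.8 ± 0.338 CPM in control to 58.0 ± 3.78 CPM after Rb2 and 20.3 ± 1.63 CPM after SFr. Cyp26b1, which degrades retinoic acid, went from 30.8 ± 1.59 to 20.7 ± 1.37 and 8.41 ± 1.03 CPM in the same order. Grhl3, an epithelial transcription factor, was lowered by -0.69 ± 0.10 with Rb2 and -1.08 ± 0.11 with SFr on the log2 scale. The groups of Gja5 and Cyp26b1 did not overlap. Hgf, hepatocyte growth factor, which activates muscle stem cells, rose by 0.41 ± 0.056 after Rb2 (adjusted p = 1.41e-05) and by 1.5 ± 0.053 after SFr.

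Rb2 and SFr changed 40 genes in the same direction with no difference called between them, 15 higher and 25 lower. Fgfrl1, an FGF receptor without a kinase domain, held 176, 173 and 161 CPM in control, 138, 134 and 134 CPM after Rb2 and 135, 138 and 134 CPM after SFr. The treated groups overlapped and lay below every control library, and the difference between the preparations had an interval of -0.073 to 0.084. Edn1, endothelin 1, fell by a log2 fold change of -0.91 ± 0.14 after Rb2 and -0.79 ± 0.14 after SFr, with a wider interval of -0.19 to 0.44 for the difference. Axin2, a standard target and brake of the Wnt pathway, held 9.19, 9.53 and 7.48 CPM in control, 6.03, 5.24 and 6.46 CPM after Rb2 and 6.85, 6.74 and 7.18 CPM after SFr. All Axin2 levels after Rb2 were below those after SFr, but the difference of 0.23 ± 0.099 did not pass (adjusted p = 0.0578). It passed when libraries were scaled by their totals alone.

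Other shared falls were in Dchs2, a cadherin (-0.51 ± 0.093 after Rb2 and -0.68 ± 0.094 after SFr), Insc, an adaptor of oriented cell division (-0.44 ± 0.084 and -0.61 ± 0.085), Krt19, a keratin (-0.42 ± 0.099 and -0.43 ± 0.098), Tsku (-0.41 ± 0.086 and -0.22 ± 0.084) and Nav3 (-0.40 ± 0.080 and -0.55 ± 0.081). The Rb2 call was lost in some alternatives for Slc24a3 (adjusted p up to 0.256), Krt19 (0.159) and Tsku (0.0764). Lix1 rose by 0.39 ± 0.072 and 0.34 ± 0.072, and the calcium exchanger gene Slc24a3 by 0.35 ± 0.093 and 0.26 ± 0.094. A missing call of a difference does not show that the 2 preparations act alike on these genes. The count of 40 was 21 without control replicate 3 and 24 without Rb2 replicate 2.

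In 44 genes the preparations moved transcripts to opposite sides of control: 24 that SFr raised and Rb2 lowered, and 20 that SFr lowered and Rb2 raised. In all 44 the SFr and Rb2 libraries did not overlap, which the rule largely fixes. Enpp2, which encodes autotaxin, the enzyme that makes lysophosphatidic acid, held 6.69, 7.21 and 6.23 CPM in control, 4.28, 3.76 and 4.71 CPM after Rb2 and 16.2, 13.7 and 15.8 CPM after SFr. Control lay between the preparations with no overlap. Rb2 lowered Enpp2 by a log2 fold change of -0.66 ± 0.12 (adjusted p = 0.000811) and SFr raised it by 1.18 ± 0.095 (adjusted p = 1.46e-12). Cxcr6 held 3.55, 3.46 and 3.95 CPM in control, 2.49, 2.51 and 2.34 CPM after Rb2 and 14.1, 13.4 and 14.4 CPM after SFr, again with control between. Hsd11b1, which turns inactive cortisone-type steroids into active glucocorticoids, held 72.0, 70.1 and 68.3 CPM in control, 57.8, 56.4 and 54.9 CPM after Rb2 and 138, 141 and 127 CPM after SFr, with an Rb2 effect of -0.32 ± 0.053 (adjusted p = 0.000305).

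Further genes raised by SFr and lowered by Rb2 were Itga10, a collagen-binding integrin (0.99 ± 0.088 and -0.49 ± 0.10), Asprv1, a skin protease (0.67 ± 0.059 and -0.45 ± 0.065), and Cd28, a T cell co-stimulatory receptor gene at 7.59 CPM in control (0.25 ± 0.099 and -0.43 ± 0.11). Of the activin and BMP ligands, which signal through SMAD proteins and restrain or promote muscle growth, Inhbb rose by 0.67 ± 0.043 with SFr and changed by -0.23 ± 0.044 with Rb2, and Bmp4 by 0.57 ± 0.049 and -0.27 ± 0.051. Bmp4 held 39.1, 38.3 and 38.3 CPM in control, 32.3, 32.2 and 31.3 CPM after Rb2 and 56.7, 57.7 and 57.0 CPM after SFr. Its groups did not overlap. Fzd1, a Wnt receptor, showed the same order, with 137 ± 2.72 CPM in control, 115 ± 0.857 CPM after Rb2 and 169.5 ± 1.24 CPM after SFr.

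Of the genes lowered by SFr and raised by Rb2, Col8a2, a basement membrane collagen, held 30.2, 33.5 and 30.6 CPM in control, 41.0, 38.6 and 44.3 CPM after Rb2 and 20.9, 23.4 and 21.9 CPM after SFr. The Rb2 libraries were all above control and the SFr libraries all below it. Cdkn1c, the p57 inhibitor of the cell cycle, changed by 0.39 ± 0.097 with Rb2 and -1.13 ± 0.11 with SFr, and Heyl, a Notch target, by 0.20 ± 0.043 and -0.74 ± 0.045. The guanylate-binding protein genes Gbp6, Gbp8 and Gbp9 were raised by 0.35 ± 0.092, 0.37 ± 0.072 and 0.34 ± 0.078 with Rb2, and are close copies between which the authors' counting may have split reads. The Rb2 side of this class rested on small effects (median absolute log2 fold change 0.26). With a library left out, the count of 44 was 24 without control replicate 3, 28 without Rb2 replicate 2, 28 without Rb2 replicate 3 and 29 without control replicate 2, and 13 genes were in the class under all 18 settings tried. Rb2 calls of Cxcr6, Itga10, Cd28, Pbk and Cdkn1c were each lost in at least 1 of them. Gbp6 was in the class in 11 of the 18 settings, Gbp9 in 14, Heyl in 16 and Gbp8 in all 18. The changed margins of 1.1-fold and 1.5-fold, counted in the 18, have no part in the rule for opposite effects and could move no gene.

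Only 15 genes met the rule for an effect particular to Rb2, 10 lower and 5 higher, of the 187 that Rb2 changed. The largest was in Sfrp2, a secreted inhibitor that binds Wnt ligands (chr3:83766321-83774316 on GRCm38). Sfrp2 held 88.4, 85.8 and 80.9 CPM in control, 51.6, 49.3 and 45.4 CPM after Rb2 and 76.6, 80.3 and 81.6 CPM after SFr. The Rb2 libraries lay far below both other groups, which overlapped each other. Rb2 lowered it by a log2 fold change of -0.80 ± 0.049 (adjusted p = 2.67e-13), and it was lower with Rb2 than with SFr in the direct test (0.70 ± 0.049 for SFr against Rb2, adjusted p = 4.49e-14). The SFr effect was -0.098, with an interval of -0.19 to -0.0021, but without control replicate 3 SFr was called as lowering Sfrp2 too, which moved the gene to the class of larger Rb2 effects.

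Second was Nkd2, naked cuticle 2, an intracellular brake on Wnt signalling (chr13:73818534-73847631). It held 25.3, 27.3 and 25.8 CPM in control, 15.9, 15.6 and 18 CPM after Rb2 and 26.7, 26.9 and 25.0 CPM after SFr. Control and SFr libraries were interleaved, and all Rb2 libraries were lower, with a log2 fold change of -0.66 ± 0.073 against control (adjusted p = 3.22e-07). The interval of the SFr effect was -0.14 to 0.14. Of 20 Wnt feedback and antagonist genes tested, Rb2 lowered 4 (Axin2, Nkd2, Sfrp2 and Lgr5) and raised 2 (Sfrp4 and Dkk3), against background shares of 0.96% and 0.575% of all genes. Lgr5, a receptor of R-spondins, fell with both preparations and more with SFr (-0.73 ± 0.12 after Rb2 and -2.15 ± 0.14 after SFr), and Sfrp4 rose with both (0.36 ± 0.095 and 1.13 ± 0.088). In SFr against Rb2, 6 of the 20 were higher and 3 lower, near the 21.9% of all genes in each direction.

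The other falls particular to Rb2 were smaller. Mrgprf, an orphan receptor, held 23.0, 25.0 and 23.3 CPM in control, 18.2, 19.0 and 17.2 CPM after Rb2 and 21.3, 23.4 and 24.5 CPM after SFr, with the Rb2 libraries below all others (-0.39 ± 0.065, adjusted p = 0.000314). Rerg, a small GTPase gene, changed by -0.50 ± 0.098, Ccbe1, a lymphatic growth regulator, by -0.35 ± 0.082, Slc44a4, a choline transporter family gene, by -0.33 ± 0.056, and Nt5e, the ectonucleotidase CD73 that makes adenosine, by -0.30 ± 0.060. Spred2, an ERK pathway inhibitor (-0.21 ± 0.052), Sulf1, which trims heparan sulfate (-0.17 ± 0.042), and Srpx2 (-0.14 ± 0.034) completed the 10. Rises were in Capn6 (0.23 ± 0.062), Isoc1 (0.22 ± 0.058), the antiproliferative gene Btg2 (0.20 ± 0.041), Azin1, a regulator of polyamine synthesis (0.16 ± 0.039), and Nudt21, a polyadenylation factor (0.16 ± 0.038). The Capn6 rise had an adjusted p of 0.0478.

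This class was small and moved with the settings. It held 28 genes without control replicate 1, 9 without control replicate 3, 7 without Rb2 replicate 3, 23 with DESeq2 and 4 when the SFr interval had to lie within 1.1-fold. Of the 15 genes, 4 (Nkd2, Mrgprf, Nt5e and Slc44a4) stayed in the class in every setting other than the changed margin. Col3a1, a fibrillar collagen, was the 1 gene with a larger Rb2 effect, at 5869.6 ± 226 CPM (SD, n = 3) in control, 7052 ± 137 CPM with Rb2 and 6247 ± 281 CPM with SFr. Its SFr effect had an adjusted p of 0.044, and it left the class of larger Rb2 effects in 6 of the 18 settings. The changed margins among the 18 have no part in the rule for that class.

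Of the 33 lists, the activin and BMP list held the most genes changed by Rb2. Of its 24 genes tested, Rb2 lowered 7 and raised 0 (0 also at an unadjusted p under 0.05 and with DESeq2), against 0.96% and 0.575% of all genes. In SFr against Rb2 7 were higher and 10 lower, against 21.9% of all genes in each direction. Fst, follistatin, which binds and blocks activins and myostatin, held 188, 171 and 161 CPM in control, 150.1, 139.7 and 146 CPM after Rb2 and 36.1, 40.7 and 36.5 CPM after SFr. Rb2 lowered it slightly (-0.26 ± 0.046, adjusted p = 0.000956), and SFr strongly (-2.20 ± 0.051). Inhba, the activin A subunit, fell with both (-0.33 ± 0.042 after Rb2 and -0.68 ± 0.042 after SFr). Grem1, a BMP antagonist, was called after SFr and not after Rb2, with 725, 674 and 685 CPM after SFr against 184, 195 and 193 CPM after Rb2 and 178, 188 and 191 CPM in control. Its Rb2 effect had an interval of -0.068 to 0.14. Mstn, myostatin, held 4 to 7 counts per group and was not tested.

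**Figure D3:**
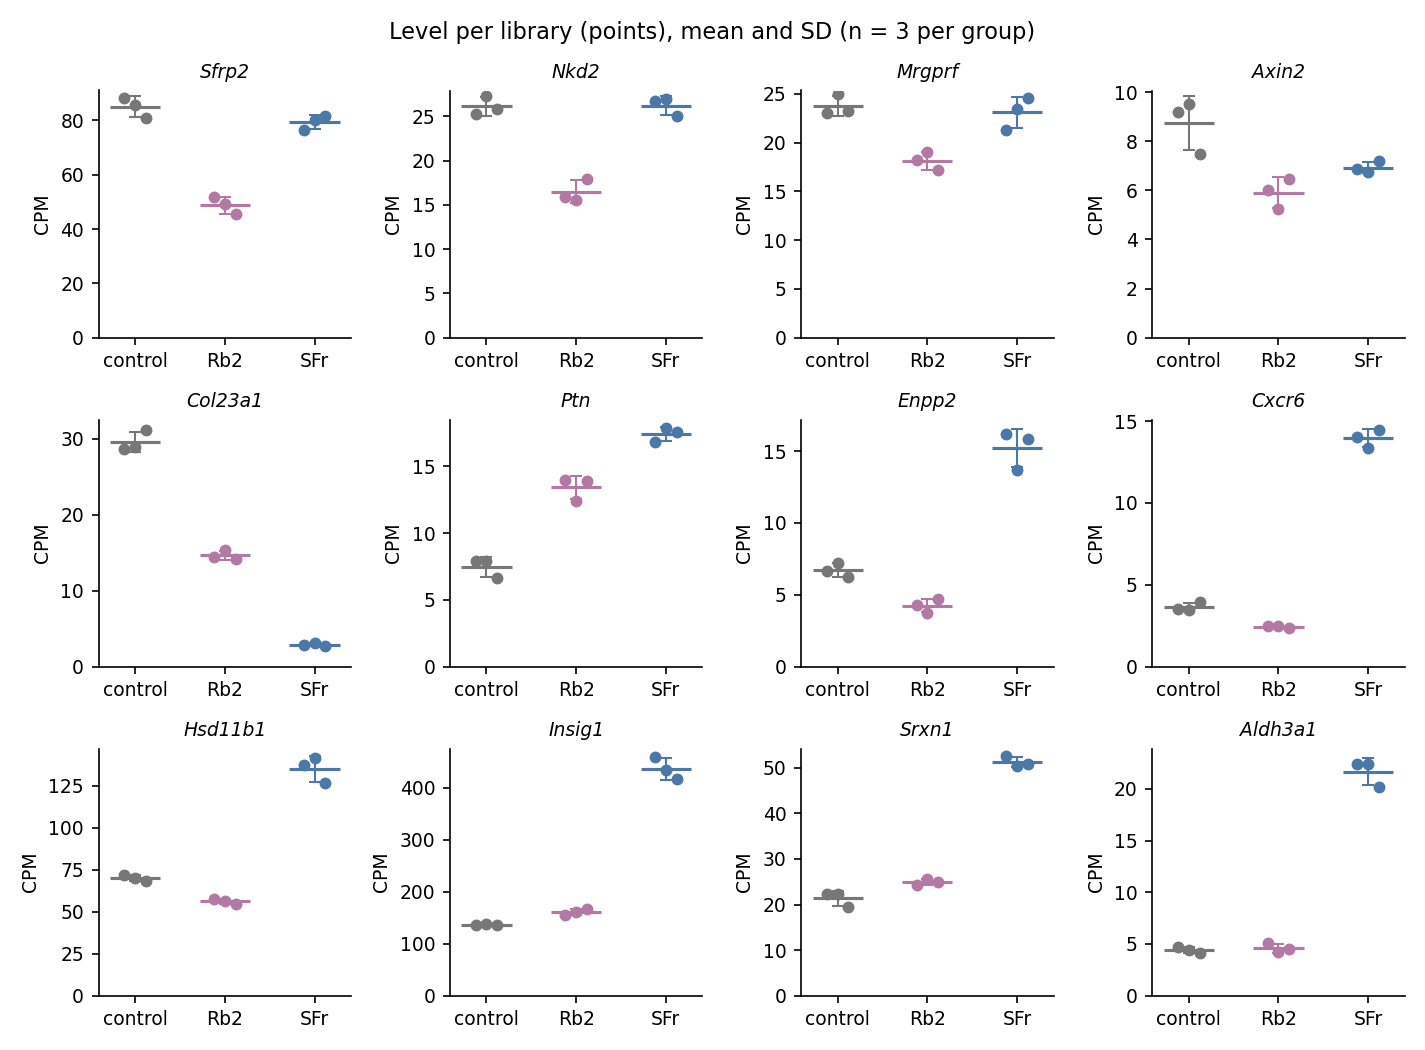
CPM (y axes, each from 0) of 12 genes in the 3 libraries of control, Rb2 and SFr (points), with the mean (bar) and SD (n = 3). Sfrp2, Nkd2 and Mrgprf are low only in the Rb2 libraries among these 9, Col23a1 and Ptn change stepwise, and Enpp2, Cxcr6 and Hsd11b1 have control between the preparations.

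The same preparations were also compared in the libraries that had received D-galactose afterwards, whose levels took no part in the sorting of genes into classes. These cultures had 24 h of D-galactose after the preparation, so D-galactose and any longer time cannot be told apart. SFr_Dgal differed from Rb2_Dgal in 5050 genes (41.4%), 2476 (20.3%) higher and 2574 (21.1%) lower. Of the 3109 genes whose SFr effect was absent with Rb2, 2420 (77.8%) were called in the same direction in SFr_Dgal against Rb2_Dgal and 4 in the other. The median difference of the cholesterol synthesis list was 0.53, of the NRF2 list 0.55, of the sarcomere list -0.39 and of the proliferation list -1.44. Of all genes tested, 275 (2.26%) were called in Rb2_Dgal against Dgal, 141 (1.16%) upward and 134 (1.1%) downward.

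Genes of opposite effect kept the sign of the difference between the preparations and of the Rb2 effect in these libraries. Signs of SFr_Dgal against Dgal are not given here, so opposite sides of Dgal are not shown. In SFr_Dgal against Rb2_Dgal, 43 of the 44 were called in the direction seen without D-galactose and the other had the same sign. In Rb2_Dgal against Dgal, all 44 had the sign that Rb2 gave without D-galactose and 21 were called. Bmp4 changed by -0.19 ± 0.053 in that comparison, Inhbb by -0.30 ± 0.044, Cxcr6 by -0.58 ± 0.11 and Enpp2 by -0.41 ± 0.11. Nuf2, one of the proliferation genes raised by Rb2, was higher in Rb2_Dgal than in Dgal by 0.78 ± 0.10 (adjusted p = 1.07e-05), and Ccna2, which did not pass without D-galactose, by 0.56 ± 0.082 (adjusted p = 5.03e-05).

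Of the 15 genes particular to Rb2, all had the same sign in Rb2_Dgal against Dgal and 7 were called, while in SFr_Dgal against Rb2_Dgal 14 had the same sign and 10 were called. In Rb2_Dgal against Dgal, Sfrp2 changed by -0.65 ± 0.052 (adjusted p = 5.82e-10) and Nkd2 by -0.60 ± 0.070 (adjusted p = 2e-06). Mrgprf (-0.41 ± 0.061), Slc44a4 (-0.37 ± 0.059), Nt5e (-0.41 ± 0.059), Ccbe1 (-0.32 ± 0.080) and Capn6 (0.24 ± 0.065) were the other 5 called. Isoc1 was at 0.013 ± 0.059 (adjusted p = 0.969), and Sulf1, with -0.024 ± 0.042 between SFr_Dgal and Rb2_Dgal, was the gene whose sign differed. Of the 79 genes with a smaller Rb2 effect, all had the same sign and 49 were called in Rb2_Dgal against Dgal, and of the 40 shared genes 38 had the same sign and 16 were called. Myh3 changed by -0.10 ± 0.044 (adjusted p = 0.316).

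**Figure D4:**
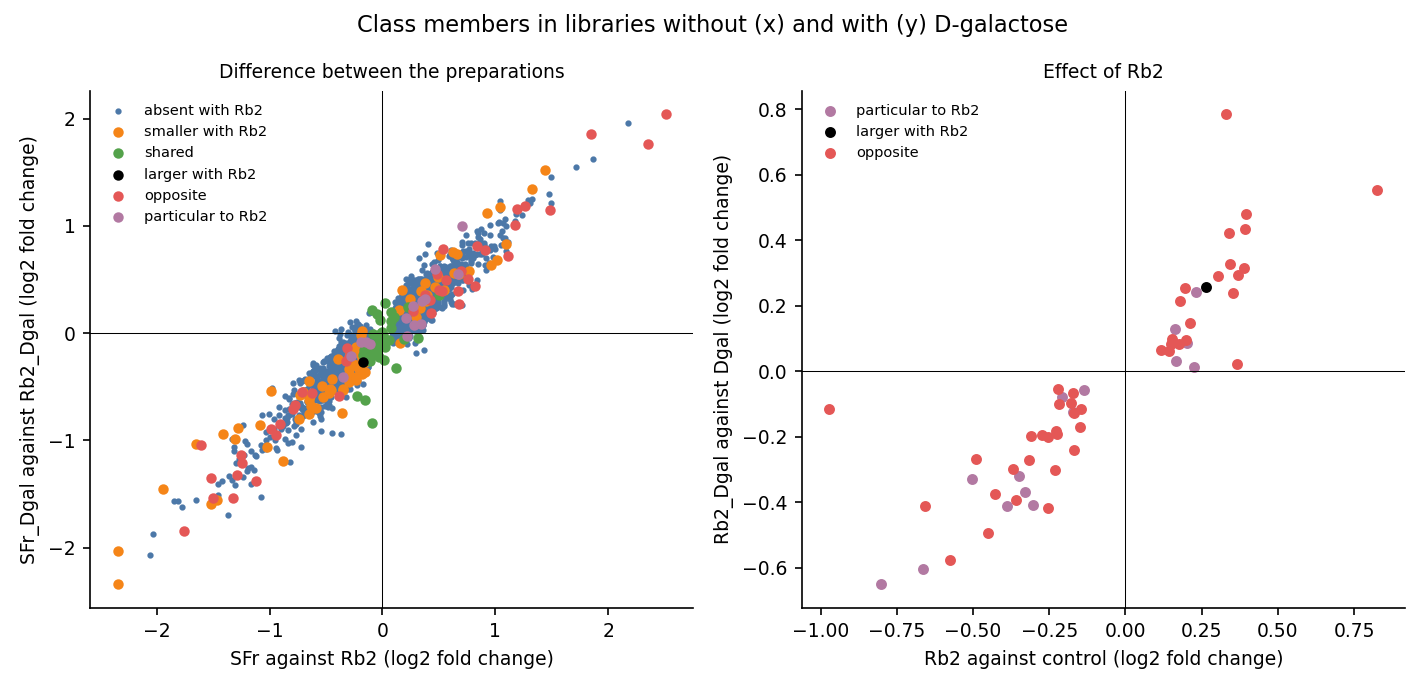
Left, the log2 difference between the preparations without D-galactose (x axis) and with it (y axis) for the members of each class; right, the log2 effect of Rb2 without (x axis) and with D-galactose (y axis) for the opposite, larger and particular classes. Points at upper right and lower left have the same sign in both sets of libraries, as 43 called opposite genes do on the left.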

How the data were processed

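Poly(A) RNA of C2C12 myotubes was sequenced as paired ends from directional libraries on a DNBSEQ instrument, per the labels' protocols. The authors deposited expected counts per gene, unscaled estimates that need not be whole (19.4% of values were not) for 16025 gene symbols in 30 libraries. Per the submitters' processing notes, reads passed through RSEM 1.3.3, STAR 2.7.9a, FastQC 0.11.9 and Trim Galore 0.6.10 (listed without order), and GRCm38 (mm10) was the build. No annotation or strand setting is given in the sources used here, so antisense and overlapping genes are uncertain, and RSEM divides reads among near copies by estimate.

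Counts were rounded and tested with edgeR 4.0.16 (limma 3.58.1, R 4.3.3). Genes passed filterByExpr (12184 genes), libraries were scaled by TMM, and 1 robust quasi-likelihood model with a term per group was fitted over all 30 libraries, so that all groups shared 1 estimate of spread (common biological coefficient of variation 4.25%). P-values were adjusted by Benjamini-Hochberg over all genes tested and called under 0.05. Values after ± are standard errors for log2 fold changes (from the F statistic) and SDs for levels. Confidence intervals are 95%. CPM used TMM-scaled library sizes. Intervals and count floors cover counting and replicate spread in these libraries only. The direct, control and D-galactose contrasts came from the same model, and classes used a margin of 1.2-fold.

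The comparison, the 40 gene lists (33 functional and 7 of cell markers) and the named set were chosen with earlier results of these data known. The lists overlap, with 38 of their 705 genes in more than 1 list, so that their counts are not independent. The text names the 8 largest rises and falls of SFr against Rb2 and 8 genes of each class (mean of at least 5 CPM, groups not overlapping), up to 5 members per list by p, and a fixed set of genes of known pathways. Ahr, Azin1, Btg2, Dkk3, Edn1, Fgfrl1, Fzd1, Gbp6, Gbp8, Gbp9, Ggps1, Hsd11b1, Idi1, Inhba, Isoc1, Lgr5, Myoz2, Nudt21, Pcna, Spred2, Srpx2 and Sulf1 were named after their values were seen. Coordinates are from GENCODE vM21 on GRCm38, in which 16021 of the symbols were found. No 2 replicates agreed within sampling noise (chi-square per degree of freedom at least 2.48), so none were merged. Same-numbered libraries of control, Rb2 and SFr did not deviate together (r between -0.063 and 0.063). Alternatives were scaling by RLE, upper quartile or totals, no filter, DESeq2 1.42.0, a replicate block, fits of only the groups compared, margins of 1.1-fold and 1.5-fold, and each library left out. The model was tested on simulated counts.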

Additional observations from a re-analysis of the deposited data

Results flagged for a closer look

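The difference between SFr and Rb2 was itself compared between libraries without and with D-galactose, as an interaction term of the edgeR model over all 12184 genes tested. By the labels, D-galactose was given for 24 h after the 12 h of preparation. An effect of D-galactose and of any longer time since the preparation therefore cannot be told apart here. The interaction was called for 65 genes, and for 6 of the 200 named genes looked at. The follistatin gene Fst was lower in SFr than in Rb2 by a log2 fold change of -1.95 ± 0.051 without D-galactose and -1.45 ± 0.050 with it, an interaction of -0.50 (adjusted p = 0.000284). Its groups without D-galactose lay at 36.1 to 40.7 CPM after SFr and 139.7 to 150.1 CPM after Rb2.

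The excess of SFr over Rb2 was larger without D-galactose for 3 genes. The interaction was 0.33 for Spp1, osteopontin (adjusted p = 0.0018, excess 1.01 without and 0.69 with D-galactose). For Xdh, xanthine dehydrogenase, it was 0.72 (adjusted p = 0.00443, 2.22 and 1.5). For Asprv1, which the preparations moved in opposite directions, it was 0.39 (adjusted p = 0.0201, 1.12 and 0.72).

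Egr3, an immediate early transcription factor, was lower in SFr in both settings and less so without D-galactose (-0.45 and -0.70, interaction 0.25, adjusted p = 0.0184). Sfrp2, the leading gene particular to Rb2, differed more between the preparations with D-galactose (0.70 without and 1.00 with it, interaction -0.30, adjusted p = 0.0399). In all 6 genes the difference between SFr and Rb2 had the same sign with and without D-galactose.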

How the results depend on the processing

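Gene by gene, the alternatives followed SFr against Rb2 for named genes, and Rb2 against control for those named for a class other than absent. Single-gene values of SFr against control, of the D-galactose contrasts and of the interaction were not followed in this way. Of the values followed, no called one changed direction under any alternative. The uncalled differences of SFr from Rb2 ran from -0.095 to 0.061 for Krt19 and from -0.18 to 0.012 for Slc24a3. The number of genes called between SFr and Rb2, and after SFr against control, stayed within 1.5 times under every one, while the small counts for Rb2 did not. A fit of only Rb2 and control called 106 genes, 36 higher and 70 lower. The class of larger Rb2 effect held 0 genes with RLE scaling, 2 with library totals only and 0 in a fit of only control, SFr and Rb2. The class particular to Rb2 held 23 genes with DESeq2 and 4 at a margin of 1.1-fold, which left 1406 genes absent with Rb2, since a narrower margin admits fewer intervals. Mitochondrially encoded genes higher in SFr than in Rb2 numbered 3 when only the groups compared were fitted. With 1 library left out, Rb2 against control ranged from 115 to 209 genes called, 45 to 74 higher and 70 to 135 lower. The lowest of these came without control replicate 3. The classes ranged from 0 to 3 for larger, 24 to 40 for opposite, 7 to 28 for particular, 21 to 44 for shared, 55 to 85 for smaller and 2649 to 2832 for absent with Rb2, and the mitochondrially encoded list from 3 to 6. Higher Rb2 calls numbered 46 without Rb2 replicate 2, and lower ones 75 without Rb2 replicate 3. The cause of these changes was not tested.

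The replicate numbers do not pair the libraries. A fit with the replicate number as a block called 5296 genes between SFr and Rb2, 5200 for SFr against control and 194 for Rb2 against control. It changed no call among the 233 values of named genes followed. Among 1398 values of named genes with 1 library left out, 45 lost and 3 gained a call. With only the groups compared, 9 of 233 lost and 1 gained one, and with library totals only 2 gained one, the direct differences of Axin2 and Tsku. Among the named genes of these classes tested in this way, the Rb2 effects that lost a call under some alternative were those of Capn6 (adjusted p up to 0.275), Slc24a3 (0.256), Cd28 (0.167), Krt19 (0.159), Ccbe1 (0.146), Cdkn1c (0.135), Pbk (0.109), Tsku (0.0764), Itga10 (0.0562) and Cxcr6 (0.0501). The Rb2 intervals of 1109 genes reached past 1.2-fold, so these genes could not be placed. An interval can reach past the margin by its width, with 3 libraries per group, or because the estimate lies away from 0.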

Other observations

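The genes particular to Rb2 were also measured after 12 h with the other 2 preparations of the series, the water extract (RGW) and the non-saponin fraction (NSFr), each at 100 µg/mL and with 3 libraries. These are values only, with no test. Sfrp2 stood at 48.8 ± 3.15 CPM after Rb2 (SD, n = 3), against 85.0 ± 3.82 CPM in control, 79.5 ± 2.63 CPM after SFr, 99.3 ± 4.38 CPM after RGW and 88.8 ± 1.72 CPM after NSFr. Nkd2 stood at 16.5 ± 1.29 CPM after Rb2, 26.1 ± 1.05 CPM in control, 26.2 ± 1.05 CPM after SFr, 30.8 ± 1.3 CPM after RGW and 31.8 ± 1.14 CPM after NSFr. For both genes, and for Mrgprf, Nt5e and Slc44a4, Rb2 gave the lowest mean of these 5 groups. Slc44a4 was at 15.0 ± 0.164 CPM after Rb2 and at 23.1 ± 0.748 CPM after RGW, against 18.8 ± 0.637 CPM in control.

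Capn6, raised by Rb2 to 56.6 ± 5.24 CPM from 48.3 ± 2.27 CPM in control, was at 54 ± 5.06 CPM after RGW and 54.3 ± 1.96 CPM after NSFr, so that both means lay within 1 SD of the Rb2 mean, by the SD of the Rb2 libraries. Sulf1, lowered by Rb2 to 118 ± 6.51 CPM from 133 ± 2.72 CPM in control, was at 121 ± 3.17 CPM after RGW and 124 ± 1.45 CPM after NSFr, which also lay within 1 SD of the Rb2 mean. Col3a1 was at 7052 ± 137 CPM after Rb2 and between 5753 and 6247 CPM, by group mean, in control, SFr, RGW and NSFr.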
